A study of Mus musculus with 4 samples.

Results

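The genes described here are 10 genes of de novo fatty acid synthesis, out of 22180 genes measured, in epigonadal white adipose tissue of fasted male mice. They were chosen by function, but with earlier results of these data known, so their counts beside those of all genes are descriptions only. The 10 are the enzymes Acly, Acaca, Fasn, Elovl6, Scd1 and Me1, the lipogenic proteins Thrsp and Pnpla3, and the transcription factor genes Srebf1 and Mlxipl. Each was read by a single probe set, the only one on the array with that gene as its sole symbol. The 4 groups were LDKO (Irs1/2-flox with Albumin-Cre), its Irs1/2-flox control, LTKO (Irs1/2:FoxO1-flox with Albumin-Cre) and its Irs1/2:FoxO1-flox control, with 1 array each. All 4 carry floxed Irs1 and Irs2, and LTKO and its control carry floxed FoxO1 as well. The albumin promoter drives Cre in hepatocytes, so by design the deletion lies in the liver and the fat studied here is a responding tissue. LDKO and LTKO mice were 4 months old, while no age is given for the control mice, and the labels do not state if RNA was pooled over mice. With single arrays there is no test, error or p-value for any difference below, which the small number of arrays leaves without a measured precision.

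De novo lipogenesis turns carbon from glucose into fatty acids. Citrate leaves the mitochondrion, ATP citrate lyase (Acly) splits it into acetyl-CoA, acetyl-CoA carboxylase (Acaca) makes malonyl-CoA, and fatty acid synthase (Fasn) builds palmitate with NADPH that comes in part from malic enzyme (Me1). Elovl6 lengthens palmitate and Scd1 introduces a double bond. SREBP-1 (Srebf1) and ChREBP (Mlxipl) are transcription factors known to raise these genes with insulin and with glucose, and fasting is known to lower the pathway in adipose tissue and liver.

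Values are RMA signals in log2 units, so a difference of 1 is 2-fold, and differences are Cre line minus control unless stated. Levels are compared within a gene only. A gene passed the filter on dim genes where its higher array in a comparison reached 5.15, the mean signal of the median gene, and all 10 genes passed in every comparison. Between the 2 control arrays the median size of a difference was 0.161 and the 95th percentile was 0.566 over genes past that filter, and no other measure of spread between arrays lacking Cre is at hand.

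The LDKO array held at least 2-fold more signal than the Irs1/2-flox control for 4 of the 10 genes, namely Pnpla3, Fasn, Thrsp and Me1, and none was 2-fold lower. Me1 lies at the line, and with quantile normalization again it was at 0.99, which left 3 genes. Over all genes past the filter 0.572% were 2-fold higher and 0.624% were 2-fold lower in that comparison. The genes differed among themselves: Acly and Scd1 were within 0.1 of the control, and Mlxipl was lower. In all 6 of the 10 were higher than in that control by any size, where 43.2% of genes were. The median difference over the 10 genes was 0.51, against −0.05 over all genes past the filter. Set against the Irs1/2:FoxO1-flox control, the same LDKO array gave a median of 0.0032 over the 10 genes and 2-fold differences for Thrsp (higher) and Mlxipl (lower) only. The backgrounds there were 0.627% of genes higher and 0.688% lower, and the count of 2 became 1 under quantile normalization again or with a loess curve removed. In LTKO none of the 10 genes was 2-fold apart from its own control, where 1.78% of genes were. There 7 of the 10 were lower by any size, against 57.1% of genes, and the median was −0.13. Against the Irs1/2-flox control the direction turned, with 9 of the 10 higher in LTKO, where 51.9% of genes were, and a median of 0.22, against 0.01 over all genes past the filter.

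**Figure D1:**
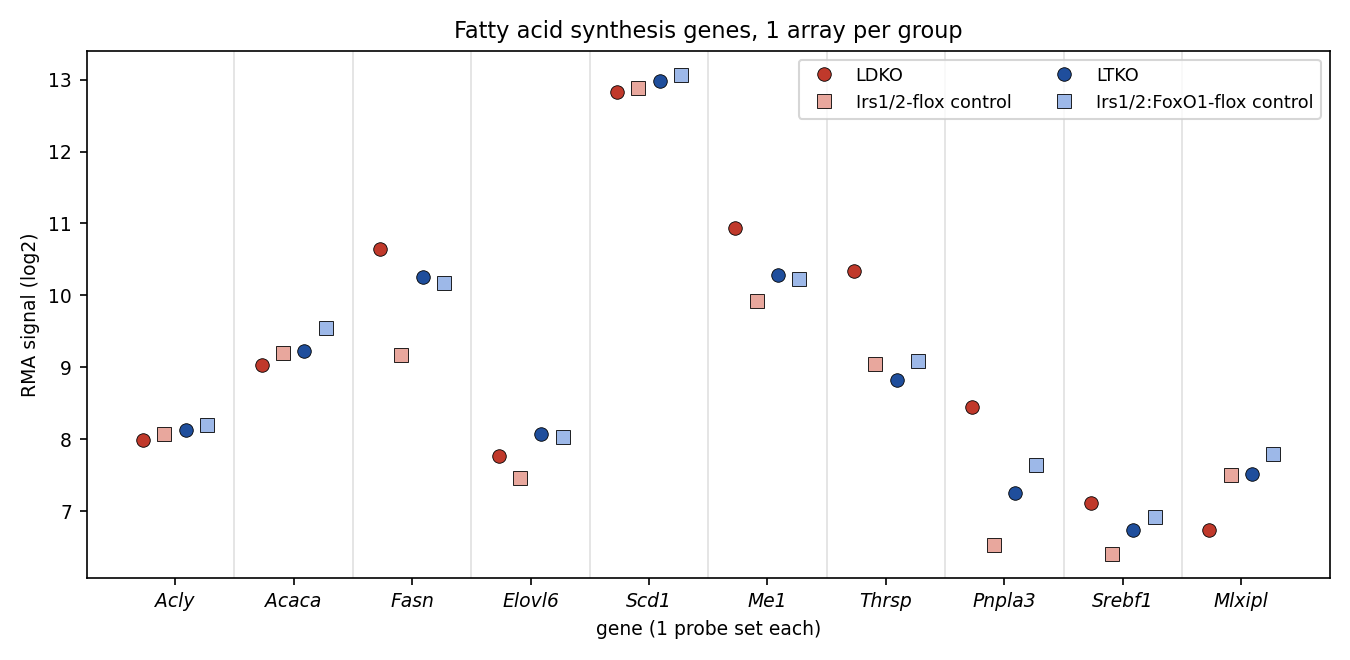
RMA signal in log2 units (vertical axis) of the 10 genes (horizontal axis), 1 point per array: LDKO and LTKO as circles, their controls as squares. LDKO is the highest array for Fasn, Me1, Thrsp, Pnpla3 and Srebf1 and the lowest for Acly, Acaca, Scd1 and Mlxipl; heights are comparable within a gene only.

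Among the enzymes that make palmitate, those of the early steps were less than 1.5-fold apart over the arrays. Acly was 7.996 in LDKO and 8.08 in the Irs1/2-flox control, 8.13 in LTKO and 8.20 in the Irs1/2:FoxO1-flox control. The whole range was thus 0.20, and LDKO was the lowest of the 4. Acaca was 9.04 in LDKO against 9.20 in its control, and 9.23 in LTKO against 9.55 in its control. It was lower in both Cre lines than in their own controls, with differences of −0.17 in LDKO and −0.32 in LTKO, sizes that 53.0% and 15.4% of all genes past the filter reached or exceeded in those comparisons.

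Fasn had a wider spread than Acly and Acaca. It was 10.65 in LDKO, 9.17 in the Irs1/2-flox control, 10.25 in LTKO and 10.18 in the Irs1/2:FoxO1-flox control. The Irs1/2-flox control lay far below the 3 other arrays, which were within 0.47 of each other. Fasn was 2.78-fold higher in LDKO than in its own control, rank 17 of 11533 genes by positive difference, and 1.38-fold higher than in the other control, rank 554 of 11489. In LTKO it was 0.08 above its own control and 1.08 above the Irs1/2-flox control. Against the Irs1/2-flox control, Fasn was the only one of the 10 that was 2-fold apart in LTKO, as were 1.24% of genes.

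Neither enzyme that modifies palmitate was 2-fold apart from a control in the Cre lines. Scd1, the stearoyl-CoA desaturase of adipocytes and liver, was 12.82 in LDKO, 12.89 in the Irs1/2-flox control, 12.98 in LTKO and 13.07 in the Irs1/2:FoxO1-flox control. Each Cre line was below its own control, with differences of −0.07 in LDKO and −0.08 in LTKO. These Scd1 levels lie near the highest signals of the arrays (13.28 to 13.41), and saturation of its probe set was not tested. Elovl6 was 7.78 in LDKO and 7.46 in its control, 8.08 in LTKO and 8.04 in its control. The 2 arrays with floxed FoxO1 were the higher pair, and the LDKO difference was 0.32 against its own control and −0.26 against the other. The LTKO difference of Elovl6 was 0.04 against its own control and 0.62 against the Irs1/2-flox control, a size that 4.38% of genes reached there.

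Me1, the cytosolic malic enzyme that supplies NADPH to Fasn, was 10.94 in LDKO, 9.92 in the Irs1/2-flox control, 10.28 in LTKO and 10.23 in the Irs1/2:FoxO1-flox control. LDKO stood above the other 3 arrays, which spanned 0.36. The difference was 1.02 (2.03-fold) against its own control and 0.70 (1.63-fold) against the other, a size that 3.98% of genes reached there. In LTKO it was 0.04 above its control.

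Thrsp, a small nuclear protein of lipogenic tissues that is induced by thyroid hormone and carbohydrate, gave the clearest separation of LDKO. Its signal was 10.34 in LDKO, 9.05 in the Irs1/2-flox control, 8.82 in LTKO and 9.09 in the Irs1/2:FoxO1-flox control. The 2 controls differed by 0.04, and LDKO was 2.45-fold and 2.39-fold above them. It was the only one of the 10 genes at least 2-fold above both controls, as were 0.265% of genes past the filter. LTKO lay below both controls, with differences of −0.27 from its own and −0.23 from the other, and 1.52 log2 units below LDKO, rank 20 of 11660 genes by negative difference between the Cre lines.

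Pnpla3, the patatin-like lipid droplet protein also called adiponutrin, had the largest LDKO difference of the 10. It was 8.45 in LDKO, 6.53 in the Irs1/2-flox control, 7.25 in LTKO and 7.64 in the Irs1/2:FoxO1-flox control. LDKO was 3.79-fold above its own control, rank 9 of 11533 genes, and 1.76-fold above the other control, rank 135 of 11489. The Irs1/2:FoxO1-flox control itself exceeded the Irs1/2-flox control by 1.11. LTKO differed by −0.39 from its own control, by 0.72 from the Irs1/2-flox control and by −1.20 from LDKO. Thrsp and Pnpla3 were the members 2-fold lower in LTKO than in LDKO, where 0.6% of genes were.

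**Figure D2:**
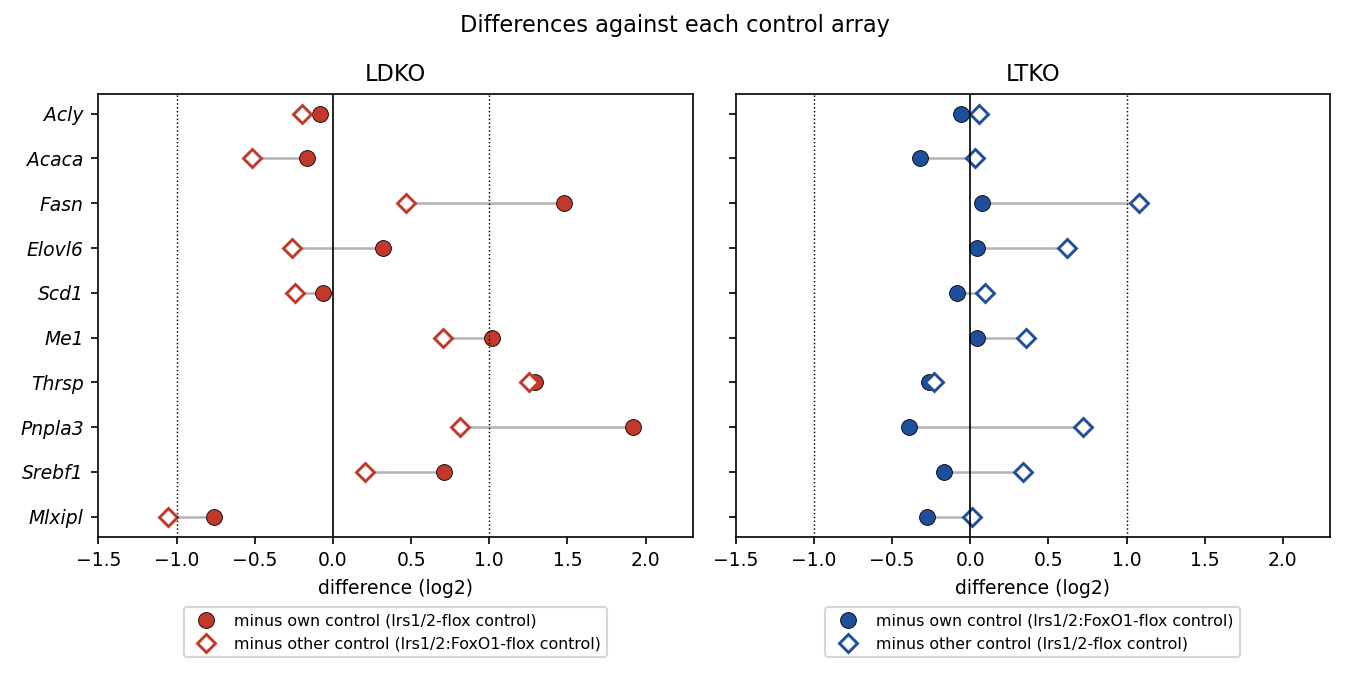
Difference in log2 units (horizontal axis) of LDKO (left) and LTKO (right) for each gene, against the own control (filled circles) and the other control (open diamonds); dotted lines mark 2-fold. For Thrsp the 2 symbols nearly coincide at 1.29 and 1.26 in LDKO, while for Pnpla3 they are 1.92 and 0.81 and for Fasn 1.47 and 0.47.

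The promoters of the 4 genes that were 2-fold higher in LDKO than in its own control are shown. That comparison picked them, and of the 4 only Thrsp was also 2-fold above the other control. The sequences are the 250 bases before the transcription start of RefSeq, build GRCm38.p6, with capitals for 5 short motifs searched on both strands: the E-box CACGTG, the CCAAT box CCAAT, the GC box GGGCGG, the TATA box TATAAA and a sterol response element TCACNCCAC. The windows lie at chr7:97417551-97417800, minus strand (Thrsp), chr15:84167566-84167815, plus strand (Pnpla3), chr11:120824548-120824797, minus strand (Fasn) and chr9:86695915-86696164, minus strand (Me1, the upstream one of its 2 windows).
Thrsp: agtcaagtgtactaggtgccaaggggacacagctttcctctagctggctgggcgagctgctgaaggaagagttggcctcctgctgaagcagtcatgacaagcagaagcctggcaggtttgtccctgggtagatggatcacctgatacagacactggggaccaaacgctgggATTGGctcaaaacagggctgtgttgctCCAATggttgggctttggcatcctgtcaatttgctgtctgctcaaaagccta
Pnpla3: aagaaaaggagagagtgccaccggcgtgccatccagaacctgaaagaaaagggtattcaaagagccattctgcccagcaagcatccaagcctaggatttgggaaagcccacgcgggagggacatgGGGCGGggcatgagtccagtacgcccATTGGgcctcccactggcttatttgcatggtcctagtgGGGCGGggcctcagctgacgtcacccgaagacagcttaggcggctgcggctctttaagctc
Fasn: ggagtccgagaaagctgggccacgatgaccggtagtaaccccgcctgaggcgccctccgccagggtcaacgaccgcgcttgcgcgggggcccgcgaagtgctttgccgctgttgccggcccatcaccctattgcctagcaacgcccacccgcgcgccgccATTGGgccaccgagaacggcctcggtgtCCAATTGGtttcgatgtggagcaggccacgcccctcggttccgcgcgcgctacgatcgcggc
Me1: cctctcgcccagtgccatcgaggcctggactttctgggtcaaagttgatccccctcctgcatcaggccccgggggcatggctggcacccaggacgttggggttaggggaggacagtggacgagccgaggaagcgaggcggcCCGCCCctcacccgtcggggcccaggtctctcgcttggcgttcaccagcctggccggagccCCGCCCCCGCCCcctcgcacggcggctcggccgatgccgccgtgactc
Thrsp held 2 CCAAT boxes, first bases 79 and 52 before the start, and no GC box. Pnpla3 held 1 CCAAT box at 99 and 2 GC boxes at 125 and 61. Fasn held CCAAT boxes at 90, 62 and 59, and those at 62 and 59 overlap on opposite strands. Me1 held GC boxes at 109, 48 and 42 in this window and no CCAAT box. None of the 4 windows held the E-box, the sterol response element or the TATA box in these exact letters. Of 32851 promoter windows of the same length, 33.8% held a CCAAT box, 32.7% a GC box, 12.4% a TATA box, 6.02% the E-box and 1.05% the sterol response element. RefSeq windows were matched for 9 of the 10 genes, 13 windows in all, and Scd1 was not matched. A CCAAT box was found in 7 of these 13 windows and a GC box in 6. These matches describe letters in the windows, and binding was not measured.

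The transcription factor genes themselves lay on opposite sides of both controls in LDKO. Srebf1, which encodes SREBP-1, was 7.12 in LDKO, 6.41 in the Irs1/2-flox control, 6.75 in LTKO and 6.92 in the Irs1/2:FoxO1-flox control. LDKO was the highest, at 0.71 (1.64-fold) above its own control but only 0.21 above the other. Mlxipl, which encodes ChREBP, was 6.74 in LDKO, 7.50 in the Irs1/2-flox control, 7.52 in LTKO and 7.80 in the Irs1/2:FoxO1-flox control. LDKO was the lowest array, and the 3 others spanned 0.29. The LDKO difference was −0.76 against its own control, a size that 3.05% of genes reached, and −1.05 against the other, where 1.13% did. Mlxipl was the only one of the 10 genes 2-fold lower than a control.

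Mlxipl and Srebf1 each have more than 1 promoter, and a gene-level probe set does not tell the transcripts apart. For Mlxipl, the upstream promoter is known to give the shorter beta form of ChREBP and the downstream promoter the alpha form, and both windows are shown because the lower signal in LDKO cannot be assigned to either form. The upstream window is chr5:135089640-135089889, plus strand, and the downstream window is chr5:135106641-135106890, plus strand.
Mlxipl upstream: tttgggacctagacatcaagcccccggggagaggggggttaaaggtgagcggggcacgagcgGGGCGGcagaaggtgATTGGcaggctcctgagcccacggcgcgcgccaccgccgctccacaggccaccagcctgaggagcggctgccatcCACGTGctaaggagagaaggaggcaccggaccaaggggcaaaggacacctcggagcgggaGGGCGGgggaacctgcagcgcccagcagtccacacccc
Mlxipl downstream: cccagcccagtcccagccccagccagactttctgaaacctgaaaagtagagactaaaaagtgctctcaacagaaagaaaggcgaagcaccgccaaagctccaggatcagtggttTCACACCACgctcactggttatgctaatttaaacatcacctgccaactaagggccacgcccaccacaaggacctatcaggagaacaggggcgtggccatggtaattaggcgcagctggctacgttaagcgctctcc
The upstream window held the only E-box among the 13 windows, with its first base 98 before the start, together with a CCAAT box at 173 and GC boxes at 188 and 38. The downstream window held the only sterol response element, with its first base 136 before the start.

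Taking the arrays 1 at a time, LDKO was above both controls for 5 of the 10 genes (Fasn, Me1, Thrsp, Pnpla3 and Srebf1), where 27.4% of all genes were. It was below both for 4 (Acaca, Acly, Scd1 and Mlxipl), where 44.1% of genes were, and between them for Elovl6, as were 28.5%. The same 5 and 4 genes had LDKO as the highest and the lowest of all 4 arrays, which held for 22.7% and 37.4% of genes. LTKO lay between the controls for 6 of the 10, where 38.6% of genes did, above both for Fasn, Elovl6 and Me1 (28.1% of genes), and below both for Thrsp (33.3%). The comparisons of LDKO with the 2 controls share the LDKO array, so their values are not separate evidence for it.

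**Figure D3:**
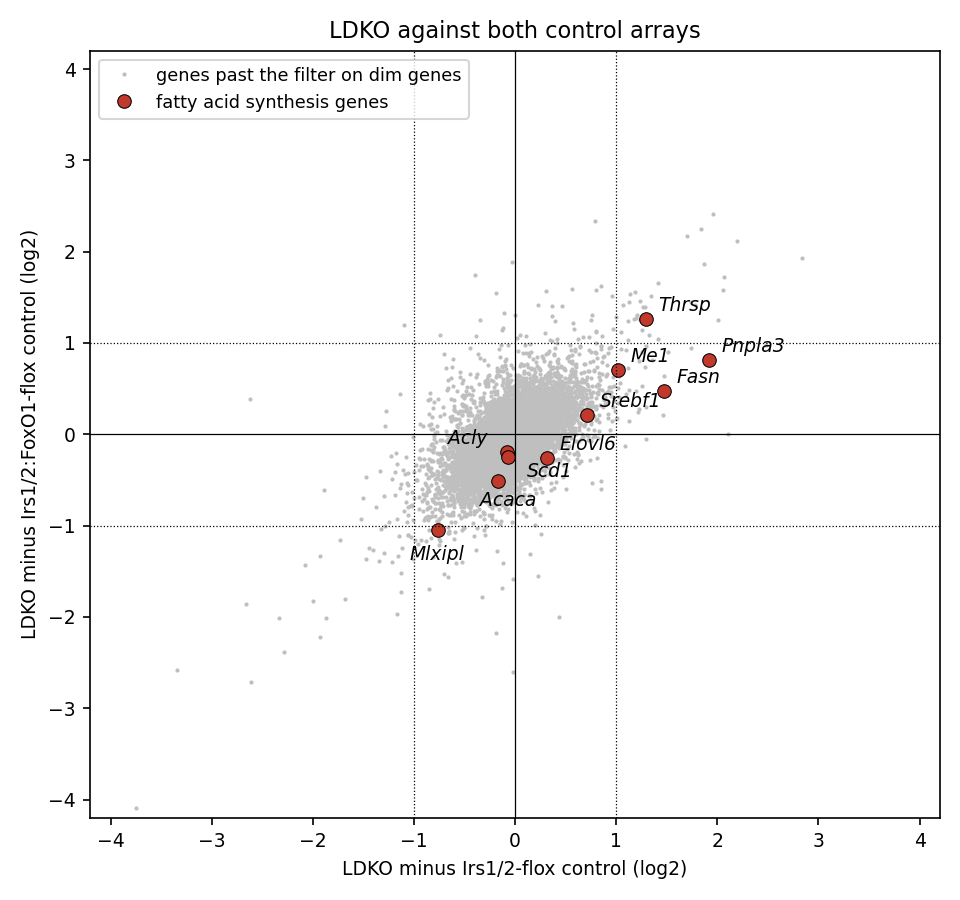
Difference of LDKO from the Irs1/2-flox control (horizontal axis) and from the Irs1/2:FoxO1-flox control (vertical axis), both in log2 units, for genes past the filter on dim genes (grey) and the 10 fatty acid synthesis genes (red); dotted lines mark 2-fold. Thrsp is 2-fold higher on both axes, Pnpla3, Fasn and Me1 on the horizontal axis only, and Mlxipl is 2-fold lower on the vertical axis only; both axes contain the LDKO array.

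The 2 controls differed at these genes. All 10 were higher in the Irs1/2:FoxO1-flox control than in the Irs1/2-flox control, by a median of 0.33 and from 0.04 (Thrsp) to 1.11 (Pnpla3), where 55.5% of all genes were higher. Fasn (1.01) and Pnpla3 were 2-fold higher, against 0.262% of genes (1 of the 10 genes with a loess curve removed), and Elovl6 (0.58) also exceeded the 95th percentile of differences between these arrays. Some marker lists of other cell types also differed between the controls. All 8 mesothelial markers and all 8 skeletal muscle markers were lower in the Irs1/2:FoxO1-flox control than in it, and so were 7 of 8 macrophage markers, where 44.5% of all genes were. Other lists went the other way, with 6 of 6 endothelial markers (median 0.06), 5 of 6 brown adipocyte markers (median 0.48) and 3 of 5 stromal progenitor markers (median 0.12) higher in the Irs1/2:FoxO1-flox control. In LDKO all 8 mesothelial, 8 muscle and 8 macrophage markers were below the Irs1/2-flox control, where 56.7% of all genes were, with median differences of −0.62 (mesothelial), −0.95 (muscle) and −0.35 (macrophage). Of the 8 muscle markers 6 passed the filter there (Myh4 and Ttn only through the Irs1/2-flox control), and all mesothelial and macrophage markers passed. The mean level of the mesothelial list was 6.68 in LDKO, 7.37 in the Irs1/2-flox control, 6.86 in LTKO and 6.88 in the Irs1/2:FoxO1-flox control. The muscle list was at 5.04 in LDKO, 6.13 in the Irs1/2-flox control, 5.08 in LTKO and 5.21 in the Irs1/2:FoxO1-flox control. The macrophage list was at 8.11 in LDKO, 8.55 in its control, 8.03 in LTKO and 8.37 in its control. These 3 lists were highest in the Irs1/2-flox control, the array in which Fasn and Pnpla3 were lowest. The adipocyte marker list, with Adipoq, Plin1 and Fabp4 among 11 measured genes, was at 11.21 in LDKO, 10.98 in its control, 11.05 in LTKO and 11.07 in its control. Of the 11 adipocyte markers 9 were higher in LDKO relative to its own control, where 43.2% of all genes were, and the median over the list was 0.08. Against the other control 6 were higher and 5 lower, where 39.8% of all genes were higher, with a median of 0.09. The part of cell composition in the fatty acid synthesis values was not tested, and in whole tissue fewer cells of a type and less RNA per cell cannot be told apart. RMA values have no 0, so no marker can be called absent.

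Genes around the pathway were read from 8 lists of 72 genes, of which 66 were measured and 60 passed the filter in the LDKO comparison. In LDKO 5 of the 60 were 2-fold higher and 1 was 2-fold lower than in its own control, where 0.572% and 0.624% of all genes were. The median was 0.11, against −0.05 over all genes past the filter. Against the other control, 2 were 2-fold higher (Slc25a10 and Insig1) and 1 lower (Pnpla7), where 0.627% and 0.688% of all genes were, with a median of 0.0044. None of 61 was 2-fold apart in LTKO from its own control, where only 1.78% of all genes were, and the median was −0.07.

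The genes listed for citrate, acetyl-CoA and malonyl-CoA supply were mostly higher in LDKO, while the supply itself was not measured. Of these, 6 of 8 were above the Irs1/2-flox control, where 43.2% of all genes were, with a median difference of 0.69. The 6 include Mlycd, the malonyl-CoA decarboxylase, at only 0.04. Against the Irs1/2:FoxO1-flox control 5 of 8 were higher, where 39.8% of all genes were, with a median of 0.09. All 8 were higher in that control than in the Irs1/2-flox control, where 55.5% of all genes were, by a median of 0.50. Slc25a10, the mitochondrial dicarboxylate carrier, was 7.75 in LDKO, 5.68 in the Irs1/2-flox control, 5.93 in LTKO and 6.02 in the Irs1/2:FoxO1-flox control, so LDKO stood alone. Slc25a1, the citrate carrier, was 9.54 in LDKO against 8.57 in its control, but 9.25 in the other control. Acacb, the carboxylase isoform tied to fatty acid oxidation, was 8.47 in LDKO against 8.86 in its control, and 8.90 in LTKO against 9.22 in its control. All 8 of this list were lower in LTKO than in its own control, where 57.1% of all genes were, with a median of −0.13. The largest of these differences was −0.33 (Acss2, which makes acetyl-CoA from acetate). All 8 were higher in LTKO than in the other control, where 51.9% of all genes were, with a median of 0.31. Of 6 measured NADPH genes 5 were above the Irs1/2-flox control in LDKO, none of them 2-fold, where 43.2% of all genes were higher. Idh1, the cytosolic isocitrate dehydrogenase, led with 9.86 in LDKO against 9.03 in that control. The LDKO median of the 6 genes was 0.59 against that control and 0.25 against the other. In LTKO 3 of the 6 were higher and 3 lower than in its own control, where 42.8% of all genes were higher. The largest difference was that of Pgls, an enzyme of the pentose phosphate pathway (−0.17 by its brighter probe set, 0.03 by the other).

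Elongation and desaturation genes had small differences in LDKO, with a median of 0.29 over 13 measured genes against its own control and 0.02 against the other, and none was 2-fold apart. Hsd17b12, the ketoacyl reductase of elongation, was 9.89 in LDKO and 9.14 in its control. In LTKO the largest differences from its own control were those of Elovl7 and of Fads2, the desaturase of polyunsaturated fatty acids. Elovl7 was 5.48 in LTKO against 4.55 in its control, and it passed the filter only through the LTKO array. Its signals of 5.12 in LDKO and 4.81 in the Irs1/2-flox control were below the filter too. Fads2 was at 8.29 in LTKO against 7.45 in its control. Fads2 was 1.19 higher in LTKO than in LDKO (7.10), 2-fold apart as were 1.51% of genes in that direction, and it was chosen for the text after its value was seen. Mitochondrial fatty acid synthesis, a separate pathway that feeds lipoic acid, had a median of 0.18 over 7 genes in LDKO (0.07 against the other control), with the acyl carrier protein Ndufab1 at 0.48, and −0.10 in LTKO, with the malonyl transferase Mcat at −0.40.

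**Figure D4:**
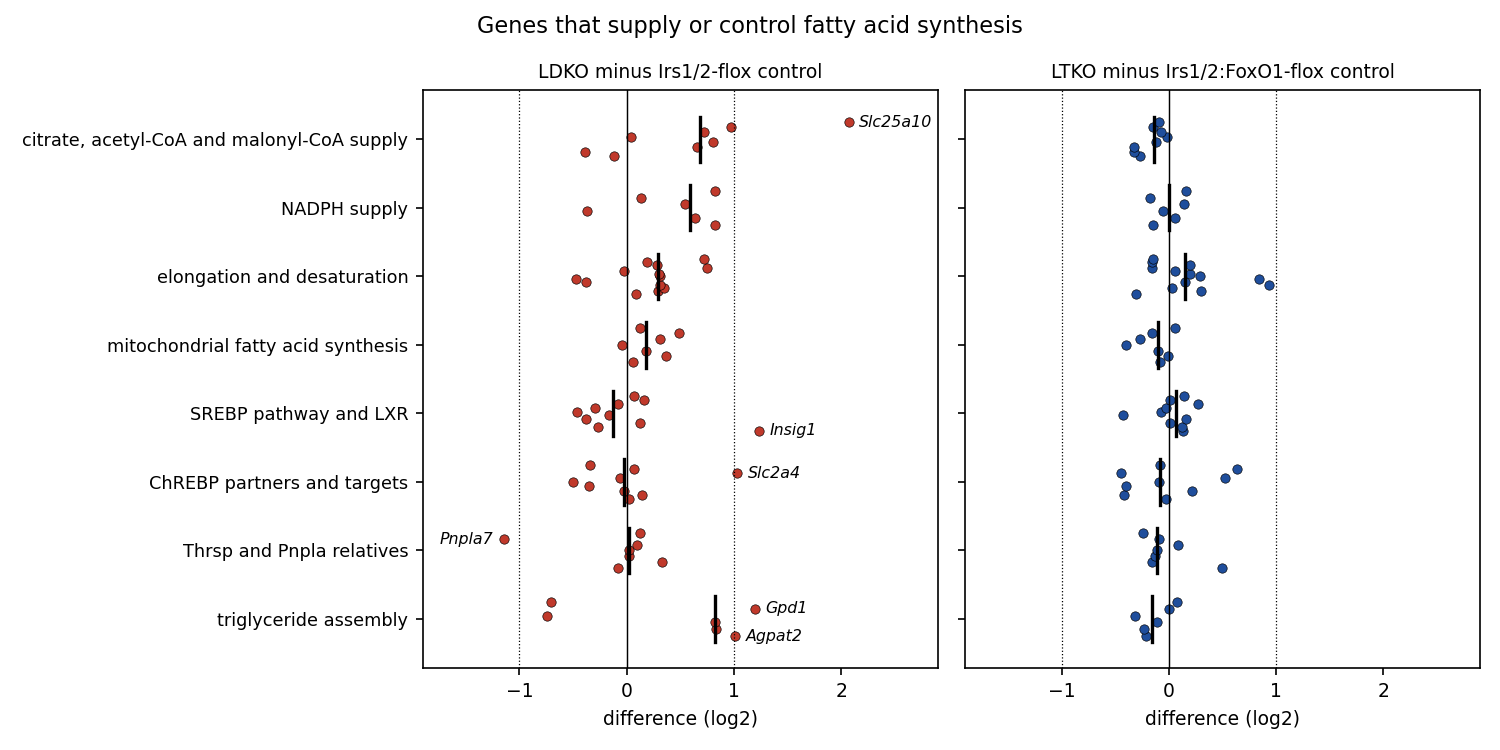
Difference in log2 units (horizontal axis) of measured genes in 8 lists (rows), for LDKO (left) and LTKO (right) against their own controls; each point is a gene, the black bar is the list median, dotted lines mark 2-fold and genes past them are named. Medians in LDKO run from −0.12 (SREBP pathway and LXR) to 0.83 (triglyceride assembly), and no LTKO point passes 2-fold.

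Of the 10 measured genes of the SREBP pathway and LXR, Insig1 alone was 2-fold apart in LDKO. Insig1 holds SREBP in the endoplasmic reticulum and is itself an SREBP target. It was 10.74 in LDKO, 9.50 in the Irs1/2-flox control, 9.62 in LTKO and 9.49 in the Irs1/2:FoxO1-flox control, a pattern in which LDKO stood apart from 3 nearly equal arrays, as for Thrsp. Srebf2, the gene of the cholesterol-directed SREBP, was 6.78 in LDKO against 6.86 in its control and 7.11 in LTKO against 6.84 in its control. Nr1h3 (LXR alpha), a known activator of Srebf1, was 7.09 in LDKO and 7.26 in its control, 6.99 in LTKO and 7.42 in its control. That list had medians of −0.12 in LDKO and 0.07 in LTKO against their own controls. Among 9 partners and targets of ChREBP the median was −0.03 in LDKO and −0.08 in LTKO, and −0.26 in LDKO against the other control. Slc2a4, the insulin-regulated glucose transporter, was the member of that list 2-fold apart, with 8.04 in LDKO, 7.003 in its control, 6.95 in LTKO and 7.40 in its control, and 0.63 as the LDKO difference from the other control. Tkfc, an enzyme of fructose breakdown, had the largest LTKO difference of that list, 6.30 in LTKO against 5.67 in its control.

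Relatives of Thrsp and Pnpla3 did not share their pattern. Mid1ip1, the paralogue of Thrsp, was 5.90 in LDKO, 5.98 in the Irs1/2-flox control, 6.26 in LTKO and 5.76 in the Irs1/2:FoxO1-flox control by the brightest of its 3 probe sets, a LTKO difference of 0.50 that the others put at 0.13 and −0.18. Pnpla2, the adipose triglyceride lipase, lay between 11.75 in LTKO and 11.88 in its control. Pnpla7, a lysophospholipase, was 6.84 in LDKO, 7.99 in its control, 7.87 in LTKO and 7.95 in its control, at least 2-fold lower in LDKO than in each control. Triglyceride assembly had a median of 0.83 over 6 genes in LDKO against its own control, with Gpd1, which makes glycerol 3-phosphate, at 10.72 in LDKO against 9.53 in that control and the acyltransferase Agpat2 at 9.77 in LDKO against 8.76 in that control. Members differed in direction: Gpam, the first acyltransferase of the pathway, was 9.45 in LDKO, 10.20 in the Irs1/2-flox control, 9.96 in LTKO and 10.28 in the Irs1/2:FoxO1-flox control. Lpin1, a phosphatidate phosphatase, was 9.92 in LDKO, 10.63 in the Irs1/2-flox control, 10.39 in LTKO and 10.31 in the Irs1/2:FoxO1-flox control. Both were thus lower in LDKO than in each control, though by less than 2-fold, and Lpin1 was chosen for the text after its value was seen. The list median was −0.0029 in LDKO against the other control. In LTKO it was −0.16 against its own control, where Gpam had the largest difference (−0.32), and 0.59 against the other.

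Set against each other, the effects in the Cre lines (each against its own control) were lower in LTKO than in LDKO for 8 of the 10 genes, where 47.9% of all genes were, and by at least 2-fold for Pnpla3 (−2.31), Thrsp (−1.56) and Fasn (−1.40), where 1.09% were. With LTKO directly against LDKO, 5 were lower and 5 higher, and 42.5% of all genes were lower. Mlxipl was the most positive, 0.77 higher in LTKO. The direct differences were −1.20 for Pnpla3, −1.52 for Thrsp and −0.39 for Fasn. The rest of each value above is the gap between the controls, 1.11 for Pnpla3, 0.04 for Thrsp and 1.01 for Fasn. Fasn was thus less than 2-fold apart between the Cre lines themselves. Markers of other tissues were higher on the LTKO array. All 8 hepatocyte markers were higher in LTKO than in its control, among them albumin (Alb) with 9.82 in LTKO against 6.93 in its control, and all 7 measured epididymis markers were too, where 42.8% of all genes were. Of these, 6 hepatocyte and 5 epididymis markers passed the filter. The 5 epididymis markers and Apoa1, Ahsg and Serpina1c of the hepatocyte list passed only through the LTKO array. For them passing is thus no separate support. The mean of the hepatocyte list was 4.73 in LDKO, 5.01 in the Irs1/2-flox control, 6.62 in LTKO and 4.88 in the Irs1/2:FoxO1-flox control. Hepatocytes also express the fatty acid synthesis genes, and the part of this signal in the LTKO values was not tested.

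The genes whose pattern over the 4 arrays was nearest to that of Fasn, by the root mean square distance of values centred on each gene's mean, were Zdhhc2, a protein palmitoyltransferase (distance 0.104), Cidea, a lipid droplet protein (0.135), Gpd1 (0.135), Aqp11, an aquaporin (0.144), and Krt79, a keratin (0.166), among 467 genes with a range of at least 1. Nearest to Pnpla3 were Nabp1 (0.138), Angpt1 (0.161), Lrrc39 (0.166), Adam12 (0.188) and the lactate receptor gene Hcar1 (0.207). Cidea was 7.43 in LDKO, 5.97 in the Irs1/2-flox control, 6.93 in LTKO and 7.22 in the Irs1/2:FoxO1-flox control, so the Irs1/2-flox control was the outlying array as for Fasn. Hcar1 was 9.04 in LDKO, 6.56 in its control, 7.51 in LTKO and 8.06 in its control, graded as for Pnpla3. The median of the 10 genes had a range of 0.46, and the lipid droplet coat gene Plin1 (0.0294) and the acyl-CoA binding protein gene Dbi (0.0333) lay nearest to it among 2691 genes with a range of at least 0.5, followed by Chchd3, Hemk1 and Prdm1. With 4 arrays such likeness is a description.

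The targeted genes were measured in fat and not in liver, so their values do not check the deletion. Irs1 was 7.46 in LDKO and 6.96 in its control, 7.09 in LTKO and 7.86 in its control by its brighter probe set, and the other probe set, between 4.21 and 4.28 on all 4 arrays, differed by −0.03 in LDKO and −0.01 in LTKO from their controls. Irs2 was 7.62 in LDKO and 7.96 in its control, 7.79 in LTKO and 7.93 in its control. Foxo1 was 8.02 in LDKO and 8.22 in its control, 8.26 in LTKO and 8.37 in its control.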

How the data were processed

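Per the labels' protocols, 500 ng of total RNA from epigonadal fat was turned into biotinylated single-stranded DNA and read on whole-transcript arrays. The authors deposited 1 log2 signal per probe set, made with Affymetrix Expression Console by RMA, per the submitters' processing notes. RMA corrects background, normalizes by quantiles and then summarises each probe set. The sources used here name neither a version nor the set of arrays normalized together. RMA removes a shift common to all genes and compresses differences of dim probe sets. Array medians ran from 4.68 to 4.73, and Pearson's r across genes between arrays ran from 0.986 to 0.991. Arrays have no read depth, and their number limits the precision.

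Of 41345 probe sets, 23521 have 1 gene symbol, 1814 have several (left out) and 16010 have no name here. Gene identifiers gave current GRCm38.p6 symbols for 23328 of them, and a gene was its probe set with the highest mean over the arrays. With 1 array per group no test was made, and a gene was counted where it differed by 1 or more in log2 units, past a filter at the median gene (5.15). The 6 comparisons were each Cre line against each control, control against control and LTKO against LDKO. Text genes were the 10 members, the gene with the largest difference in LDKO and in LTKO per list, list genes 2-fold apart in either, a few partners of the members, and the 5 nearest patterns. The list genes not matched were G6pdx, Tkt, Scd2, Hsd17b8, Nr1h2 and Acsl1 of the pathway lists and Cfd, Crisp1 and Ly6a of the marker lists. Members and lists were chosen with earlier results of these data known. Further marker lists (brown adipocytes, stromal progenitors, endothelium) had median LDKO differences from its own control of 0.37, −0.49 and 0.02. Alternatives were other thresholds, filters, probe summaries, normalizations and a mean of the controls. Steps were tested on simulated data in which all planted differences lay well past the 2-fold line, so that test says nothing on genes near the line. The scripts used pandas 2.3.3, numpy 2.4.6 and statsmodels 0.14.6 under Python 3.11.15, and figures were drawn with matplotlib 3.10.9.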

Additional observations from a re-analysis of the deposited data

Results flagged for a closer look

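Thrsp, Pnpla3 and Srebf1 were higher in LDKO and lower in LTKO, each relative to its own control, and the difference between these effects was not tested because every group has 1 array. The LTKO effect minus the LDKO effect was −1.56 for Thrsp, −2.31 for Pnpla3 and −0.88 for Srebf1. The medians over the 10 genes also had opposite signs, with −0.13 in LTKO and 0.51 in LDKO, a difference of −0.64. These signs depend on the control: the LTKO median was 0.22 against the Irs1/2-flox control, and the LDKO median was 0.0032 against the Irs1/2:FoxO1-flox control. The LTKO values of Pnpla3 and Srebf1 change sign with the Irs1/2-flox control as reference (0.72 and 0.34), whereas that of Thrsp does not (−0.23).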

How the results depend on the processing

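Medians and counts over the 10 genes were recomputed under 76 pairs of result and alternative, of which 62 changed little. For this a median moved by no more than 0.161, or a count by no more than 1.5 times. The 0.161 is the median size of a difference between the 2 control arrays, which are of different lines and not replicates. The 62 include every pair with another filter or with the mean of all probe sets. Those pairs could not change, because each of the 10 genes has 1 probe set and passed every filter, so they say nothing on stability. The 62 of 76 thus overstates how stable the values were. The mean of both controls as reference gave a median of 0.24 and 2 genes 2-fold apart in LDKO (Thrsp and Pnpla3), and a median of 0.0445 in LTKO, opposite in sign to −0.13. At 3-fold the counts were 1 for LDKO against its own control (Pnpla3) and 0 for LDKO against the other control, LTKO against the Irs1/2-flox control, control against control and LTKO against LDKO. At 1.5-fold they were 4 for LDKO against the other control, 3 for LTKO against the Irs1/2-flox control and 4 for LTKO against LDKO. Me1, Mlxipl and Fasn lie near the 2-fold line: LDKO against its own control held 3 genes, not 4, under quantile normalization again, LDKO against the other control held 1 gene, not 2, under quantile normalization again or with a loess curve (span 0.3) removed, and control against control held 1 with the loess curve removed. Over 40 values of single genes the 2 normalizations moved none by more than 0.105. The filters and the mean of all probe sets left these medians and counts as they were only because they could not change them. No paired analysis was possible because each group has 1 array and the labels give no replicate numbers.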
